A study of Mus musculus with 2 samples.

Results

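Transcripts that GENCODE annotates as targets of nonsense-mediated decay (NMD) were counted in long-read RNA sequencing of the mouse adrenal gland. The members are the Known transcript models, those that match an annotated transcript, whose annotated type is nonsense_mediated_decay and that held at least 3 reads summed over both libraries. There were 343 of them in 318 genes, among 24890 Known transcripts with at least 1 read. Because the members were chosen by their reads, their detection is a description and carries no test. The tissue came from female B6CASTF1/J mice, an F1 cross of a C57BL/6 and a CAST parent, at an age of 14 days, with no treatment and no second group. A single group of 2 libraries, replicates 1 and 2, was sequenced, and no sample with the decay pathway blocked was analysed here. The name of the replicate 1 tissue sample gives 3 females and that of replicate 2 gives 1, whereas both library descriptions speak of 3, so whether animals were pooled is uncertain. With 1 library per tissue sample, every test below compares these 2 libraries and covers counting error only.

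In nonsense-mediated decay, a ribosome that stops well ahead of an exon junction leaves the protein complex deposited at that junction in place. UPF1, with its partners UPF2 and UPF3 and the kinase SMG1, then marks the messenger RNA for destruction. Many RNA-binding proteins use the pathway to limit their own level, by splicing in a so-called poison exon or leaving in an intron that carries a stop codon. Annotation assigns the type from the position of the stop codon alone, so a read on such a model is an RNA that was present in the tissue and does not show that it was being degraded.

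The route from the coding form to the early stop is shown for 11 members, chosen because they cover the main splicing differences. Of these, 10 lead by reads or by share or belong to the splicing regulators, and Mrap-202 was picked as an adrenal gene after its values were seen. The coding form is the protein_coding transcript of the same gene with most reads. Each line below gives 15 bases that both forms share, followed by the bases from the first difference through the annotated stop codon, which stands in capitals. All were read 5′ to 3′ from the GENCODE M21 transcripts on mm10, and the coordinates cover the part after the shared bases. A retained intron gives Ddx5-208 (chr11:106783954-106783958, minus strand). Added exons give Srsf3-201 (chr17:29039454-29039487, plus strand), Cenpa-202 (chr5:30669692-30669735, plus strand), Mrap-202 (chr16:90746642-90746646, plus strand), Cbarp-212 (chr10:80136703-80136743, minus strand) and Yaf2-202 (chr15:93317554-93317608, minus strand). A skipped exon gives Clk1-210 (chr1:58419713-58419733, minus strand), Clk2-204 (chr3:89170049-89170060, plus strand) and Tk2-202 (chr8:104231228-104231248, minus strand). A moved splice site gives Chpt1-207 (chr10:88475405-88475425, minus strand) and Cyth2-203 (chr7:45808383-45810126, minus strand), whose stretch crosses an intron.
Ddx5-208: cctccagagggctaggtTAG
Srsf3-201: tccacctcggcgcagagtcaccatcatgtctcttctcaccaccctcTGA
Cenpa-202: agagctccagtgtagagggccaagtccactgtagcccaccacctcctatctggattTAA
Mrap-202: tgaaagccaacaagctgTGA
Cbarp-212: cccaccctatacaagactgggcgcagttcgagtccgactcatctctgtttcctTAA
Yaf2-202: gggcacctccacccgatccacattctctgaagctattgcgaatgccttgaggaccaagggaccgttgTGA
Clk1-210: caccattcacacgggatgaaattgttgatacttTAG
Clk2-204: agccgctcatcttcaatgaaattgTAA
Tk2-202: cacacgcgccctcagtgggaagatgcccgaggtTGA
Chpt1-207: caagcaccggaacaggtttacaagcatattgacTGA
Cyth2-203: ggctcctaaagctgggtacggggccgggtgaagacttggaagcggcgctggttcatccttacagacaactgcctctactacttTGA

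In Ddx5-208 and Mrap-202 the stop codon ends 5 bases after the forms part, whereas Cyth2-203 reads on for 71 bases in another frame. The stretches of Clk1-210 and Clk2-204, from paralogous kinases, share the run atgaaattgt, and it falls just after the skipped exon in both.

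Replicate 1 held 1143111 reads and replicate 2 held 991731, of which 810536 and 740408 fell on Known transcripts of genes. Markers of the adrenal cortex (5 of 5 with reads in each library) made up 5.36% of the reads in genes for replicate 1 and 2.39% for replicate 2, and those of chromaffin cells (4 of 4) made up 1.08% and 0.419%. Hepatocyte markers (7 of 7) made up 0.0440% and 4.91%, and skeletal muscle markers, 2 of 4 with reads in replicate 1 and 4 of 4 in replicate 2, made up 0.00516% and 0.150%. Erythroid markers (2 of 2 with reads in each library) made up 0.890% and 0.284%, and brown fat markers (2 of 2) made up 0.337% and 0.442%. No marker gene of these cell types held a member. In bulk tissue, fewer cells of a type and less RNA per cell cannot be told apart.

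Most members were rare but seen in both libraries. They held 2183 reads in replicate 1 and 1590 in replicate 2, with a median of 5 summed reads and a maximum of 356. Both libraries held reads for 303 of the 343, replicate 1 alone for 31 and replicate 2 alone for 9. A transcript with 0 reads may still have been present at up to 2.82 CPM in replicate 1 and 3.17 CPM in replicate 2 (counts per 1000000 reads in genes), the level that 3 reads would give. Of the 92 members with at least 10 reads, 91 were seen in both. The annotation lists 7186 NMD transcripts, and 791 of them had a read. At the edge of the rule, the 77 members with exactly 3 reads took a median of 6.0% of their genes' Known reads and 55 of them were in both libraries. The 130 transcripts with 2 reads, just outside, took a median of 2.31% and 59 were in both.

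**Figure D1:**
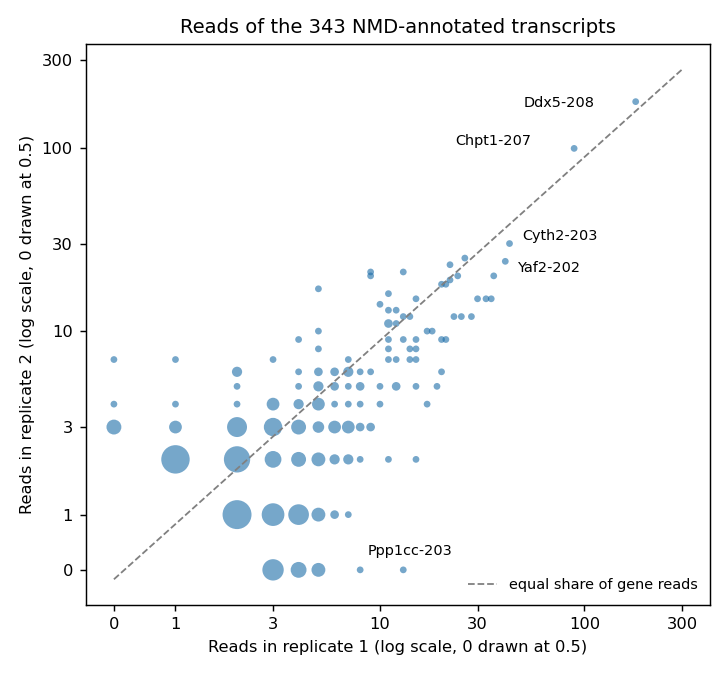
Reads of each of the 343 members in replicate 1 (horizontal axis) and replicate 2 (vertical axis), both on log scales with 0 drawn at 0.5. Larger points stand for several members with the same pair of counts, and the dashed line marks an equal share of gene reads. Most members lie at a few reads in each library, and Ddx5-208 with 178 reads in both lies farthest out.

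The members' share of the Known reads of their own genes was close in the 2 libraries. In replicate 1 it was 6.08%, with an exact Clopper-Pearson 95% interval of 5.83 to 6.33. It was 5.98% in replicate 2, with an interval of 5.70 to 6.27, and the mean was 6.03 ± 0.0692% (SD, n = 2). The value depends on the rule for members: it was 3.67% with NMD transcripts of at least 1 read and 13.6% with those of at least 10. Stratified by gene, the Mantel-Haenszel odds ratio of replicate 2 over replicate 1 was 1.01 (95% interval 0.938 to 1.09), so no shift between the libraries was detectable at this depth. Among the 287 genes with at least 20 summed Known reads, the median share was 6.82%, 101 genes reached 10%, 41 reached 25% and 13 reached 50%, whereas 24 stayed under 1%. The 25% level was reached in both libraries by 32 genes and the 50% level by 6.

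Ddx5, which encodes a DEAD-box RNA helicase of splicing and transcription, held more reads on its member than any other gene. Ddx5-208 (ENSMUSG00000020719.14, mm10 chromosome 11, 106781548 to 106788494, minus strand) had 178 reads in each library, 167 CPM in replicate 1 and 188 CPM in replicate 2. The coding form Ddx5-201 had 570 and 331 reads, and no other Known form of the gene was seen. Ddx5-208 keeps a 1265 nt intron (106782694 to 106783958), and its stop lies 1485 nt ahead of the last exon junction, the only junction after it. The intron adds length but the model is cut short at its end, so both forms are of similar size, 3593 nt and 3559 nt. Its share of Known reads was 23.8% in replicate 1, with a 95% interval of 20.8 to 27. In replicate 2 it was 35.0% (30.8 to 39.3), which is 11.2 percentage points higher, and the intervals do not overlap.

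That difference passed the test of shares (two-sided Fisher's exact test per Known transcript, Benjamini-Hochberg adjusted p = 0.00269 over all transcripts tested, and 0.000327 to 0.00327 under the other settings). Over all 5697 Known transcripts tested, 60 passed, or 1.05%, with 32 higher (0.562%) and 28 lower (0.491%) in replicate 2, against 1 of the 87 members tested. Each transcript was set against the other Known forms of its gene, so these calls are not independent. Ddx5-201 and Ddx5-208, the only Known forms of Ddx5, have the same p in opposite directions. Without adjustment, 5 of the 87 members and 6.44% of all transcripts had p under 0.05. The member share was thus called at about the rate of the table as a whole. Ddx5 reads of every class numbered 1106 and 700, and Ddx5-208 made up 16.1% and 25.4% of them, the same direction. Hepatocyte markers were higher in replicate 2 as well, and their part in this difference was not tested.

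Chpt1 came next by reads. It encodes a choline phosphotransferase of phosphatidylcholine synthesis. Chpt1-207 (chromosome 10, 88472839 to 88503889, minus strand) had 89 reads in replicate 1 and 99 in replicate 2, beside 218 and 210 on the coding form Chpt1-203. Its share was 20.6% (16.9 to 24.7) and 22.4% (18.6 to 26.6), and these intervals overlap. The change comes late, since the reading frame has 98.0% of the length of the coding one and a single junction follows the stop at 72 nt.

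Yaf2-202, from a gene for a Polycomb-associated protein, had 41 and 24 reads of 129 and 69 Known reads (31.8% and 34.8%). E2f6-204, from a repressor of the E2F family, had 26 and 25 reads against 25 and 9 on the coding form E2f6-201, so the shares were 44.8% and 67.6%. Cenpa-202, from the gene of the centromeric histone variant, had 22 and 23 reads against 17 and 7 on Cenpa-205. The Cenpa shares were 55.0% (38.5 to 70.7) and 74.2% (55.4 to 88.1). All 3 members carry an added exon with the stop inside it, of 70 nt in Yaf2, 66 nt in E2f6 and 137 nt in Cenpa. Ncaph2-209, from a subunit of condensin II, had 24 and 20 reads (16.3% and 19.4%), and a splice site moved by 17 nt leaves 6.26% of the coding length.

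Tk2-202, from the mitochondrial thymidine kinase gene, skips a 74 nt exon and had 35 and 15 reads beside 67 and 31 on Tk2-201. Its shares of 33.3% (24.4 to 43.2) and 31.9% (19.1 to 47.1) overlap widely. Ndufa7-202, from a subunit of respiratory complex I, skips a 50 nt exon and had 30 and 15 reads (6.8% and 4.37%). Iscu-205, from the gene of the iron-sulfur cluster scaffold, had 36 and 20 reads (4.33% and 4.71%). Its annotated coding start is missing, as in 15 members in all, so the position of its stop is less certain.

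Cyth2-203, Pcnp-206 and Rbm7-204 complete the 12 with most reads. Cyth2 encodes cytohesin-2, an exchange factor for ARF GTPases, and Cyth2-203 had 43 and 30 reads against 41 and 27 on Cyth2-202. The forms differ by a 4 nt move of a splice site. With shares of 49.4% and 50.8%, each form took about an equal part of the gene's Known reads in both libraries. Pcnp encodes a nuclear protein with PEST sequences, and Pcnp-206 had 33 and 15 reads (32.0% and 27.3%). Rbm7 encodes an RNA-binding protein of the complex that feeds nuclear RNA to the exosome, and Rbm7-204 had 22 and 19 reads (32.8% and 34.5%). Its 105 nt added exon holds the stop.

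The genes with the highest member shares had few reads, and the intervals are correspondingly wide. In Rbmx, which encodes the RNA-binding protein hnRNP G, 10 of 12 Known reads in replicate 1 (83.3%, 51.6 to 97.9) and 14 of 15 in replicate 2 (93.3%, 68.1 to 99.8) fell on Rbmx-205. All reads of Rbmx numbered 31 and 32, so Known models took 42.9% of the gene and the member share of all reads was 32.3% and 43.8%. The share of Cbarp, a regulator of voltage-gated calcium channels, was 78.9% and 90.0% (15 of 19 and 9 of 10 reads), of 50 and 30 gene reads of every class. In Tyw5, a tRNA-modifying hydroxylase, 15 of 16 reads and 2 of 5 fell on Tyw5-201, which rests the high value on replicate 1. The shares of Ppcdc, an enzyme of coenzyme A synthesis, were 81.2% and 69.2%, and those of Tor1aip1, a protein of the inner nuclear membrane, 65.0% and 70.6%.

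Some of the genes with high shares hold several members. Crebzf, which encodes a bZIP transcription factor, has 3, and together they took 54 of 80 Known reads in replicate 1 (67.5%) and 38 of 59 in replicate 2 (64.4%). Each splices out a stretch that lies within an exon of the coding form Crebzf-201, and Crebzf-205, with 28 and 12 reads, has an intron chain that is part of a longer transcript of another type. Pcnp-205 had 25 and 12 reads and, with Pcnp-206, brought the share of Pcnp to 56.3% and 49.1%. Hyi, a gene for a putative hydroxypyruvate isomerase annotated as a polymorphic pseudogene, had 13 and 21 reads on Hyi-202 of 30 and 35 Known reads, with no coding form read. Tmem234, named after its values were seen, has 5 members, the most of any gene, with 62 of 126 and 41 of 79 Known reads (49.2% and 51.9%). Of all reads of Tmem234, they made up 32.6% and 35.3%. In all, 20 genes held 2 or more members.

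**Figure D2:**
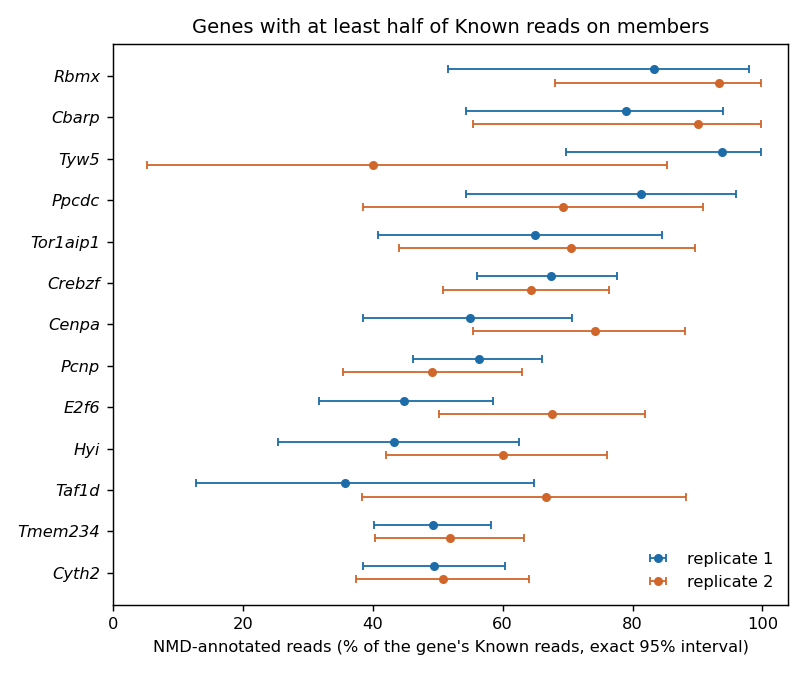
Share of each gene's Known reads that fell on its members, in percent, for the 13 genes with at least 20 summed Known reads and a share of 50% or more. Points are replicate 1 (blue) and replicate 2 (orange) with exact 95% intervals. Rbmx is highest at 83.3% and 93.3%, Tyw5 differs most between the libraries, and the intervals of each gene overlap.

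Across genes the shares repeated between the libraries. Over the 219 member genes with at least 20 Known reads in each library, the shares gave a Pearson r of 0.883 and a Spearman rho of 0.684, as a description across genes, which share libraries and are not independent replicates. The median absolute difference was 2.32 percentage points. The share was higher in replicate 2 in 102 genes and lower in 116, and the intervals overlapped in 218 of the 219. Ppp1cc-203, named after its values were seen, is the member with most reads found in 1 library alone. It comes from a catalytic subunit of protein phosphatase 1 and had 13 of 163 Known reads in replicate 1 (7.98%) and 0 of 130 in replicate 2 (95% interval 0 to 2.80%). The exact test of its share gave an adjusted p of 0.0607, which missed the threshold. A second member, Ppp1cc-204, keeps the same 190 nt intron with the stop inside it. Together the members of Ppp1cc had 14 and 2 reads (8.59% and 1.54%), so the retained intron was also read in replicate 2.

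Several splicing regulators, the proteins best known for poison exons, held members. Of 50 SR, Tra2, hnRNP and other splicing regulator genes with at least 20 reads, 14 had a member, or 28.0%, against 304 of 9211 genes in all, or 3.30%. Among those that have an annotated NMD transcript, the numbers were 14 of 36 (38.9%) and 304 of 2671 (11.4%). By number of reads, the share over all genes was 2.32% at 20 to 99 reads, 4.48% at 100 to 499 and 5.37% from 500, and among the regulators it was 26.7%, 23.1% and 44.4% in the same ranges. The lists were chosen with results of these data known, so these counts are a description without a test.

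Among the SR proteins, which bind exons and promote their use, 3 of 15 genes had a member, and each has an added exon. Srsf3-201 had 11 and 7 reads beside 226 and 124 on the coding form Srsf3-202, 4.58% (2.31 to 8.05) and 5.34% (2.18 to 10.7) of Known reads. Its 456 nt exon carries the stop, and 75.6% of the coding frame length remains. Srsf6-201, with a 268 nt exon, had 2 and 6 reads, 1.22% and 5.50%. Srsf2-202 had 4 and 1 reads, and its intron chain is the same as that of Srsf2-206, a transcript of another type, so its reads cannot be assigned by splicing. The SR members are therefore a minor part of their genes in both libraries.

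Among the hnRNP proteins and other splicing regulators, 11 of 37 genes had a member. Hnrnpa1-203 had 23 and 12 reads, 8.42% and 9.16% of Known reads, and Hnrnpdl-201 had 18 and 10, 17.3% and 23.3%. In both, the stop codon is that of the coding form and the exons after it differ, so the annotated frame is of full length. Rbm39-225, from a U2AF-related splicing factor, had 21 and 9 reads, 9.05% and 5.77%, and stops inside an added 73 nt exon after 7.63% of the coding length.

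Clk1 and Clk2 encode kinases that phosphorylate SR proteins, and the member of each loses 1 exon. Clk1-210 skips 91 nt and had 5 reads in each library beside 5 and 6 on Clk1-201, 5 of 20 and 5 of 25 Known reads of the gene. Clk2-204 skips 88 nt and had 8 and 3 reads beside 29 and 21 on Clk2-203, 16.3% and 7.89%. The frames that remain are 28.0% and 27.2% of the coding ones, a similar place in both kinases. Clk4, a related kinase with 52 and 36 gene reads, held no member. The other regulators had 9 reads or fewer. Rbm5-210 (4 and 3 reads) and Hnrnph3-204 (5 and 1) skip an exon, while Snrpb-203 (3 and 1), Tial1-204 (5 and 0) and Hnrnpll-203 (4 and 0) add one with the stop inside. Hnrnpa2b1-209 had 7 and 2 reads and keeps the coding stop.

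In the list of host and stress genes known to respond to the pathway, 2 of the 22 genes with reads had a member, both of them ribosomal protein genes. Among genes with at least 20 reads, 2 of 17 in the list and 304 of 9211 in all (3.30%) had one. How many genes of the list have an annotated NMD transcript was not counted. Rpl10a-203 had 5 and 4 reads, 1.20% and 1.75%, and Rpl12-201 had 5 and 0, 7.81% and 0% (interval to 11.2%). The stress factor Atf4 (124 and 49 gene reads) and the snoRNA host Gas5 (109 and 91) held no member. The type needs a reading frame with a stop codon, so for noncoding snoRNA hosts such as Gas5 this follows from the annotation.

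Mrap, named after its values were seen, is the adrenal gene of this set, since it encodes the accessory protein that brings the ACTH receptor to the cell surface. Mrap-202, with an added 85 nt exon, had 17 and 4 reads and Mrap-204, with a splice site moved by 149 nt, had 12 and 5. The coding form Mrap-201 had 572 and 218 reads. Together the members took 4.83% of Known reads in replicate 1 (3.26 to 6.86) and 3.96% in replicate 2 (1.83 to 7.39). These shares differ by less than their intervals although the gene held 653 and 248 reads.

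**Figure D3:**
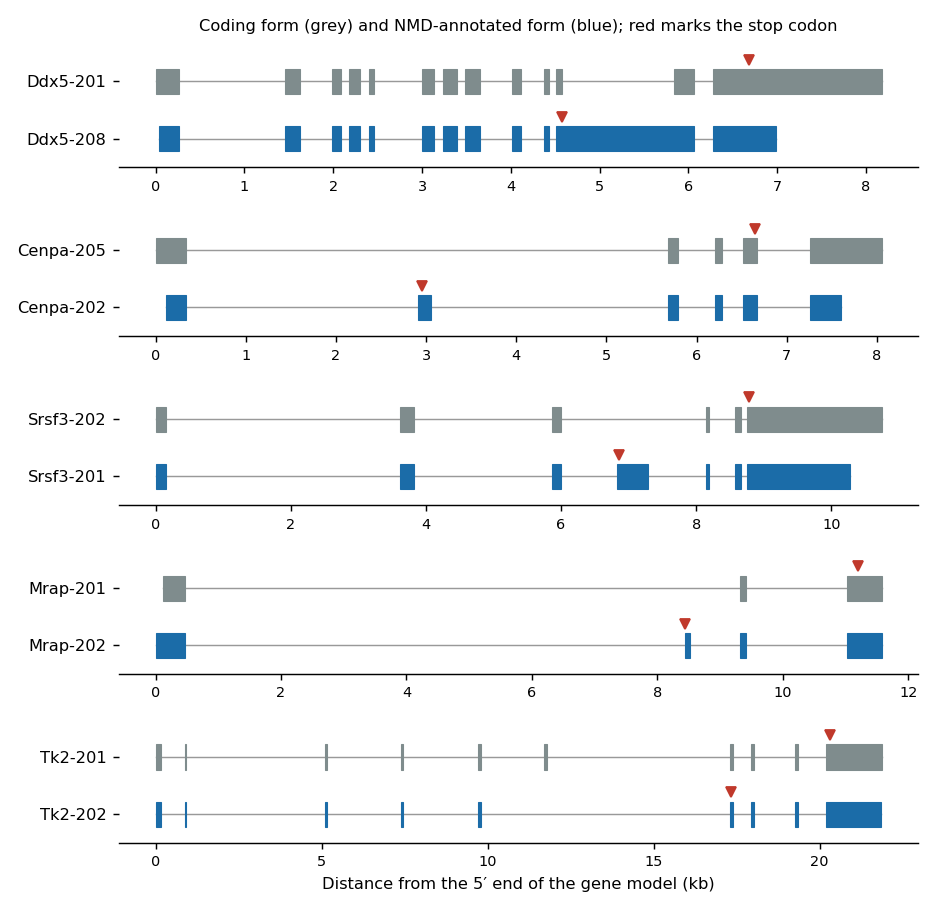
Exon maps of 5 members (blue) and their coding forms (grey), drawn to scale in kb from the 5′ end of the gene model, with a red mark at each stop codon. Ddx5-208 keeps an intron of 1265 nt, Cenpa-202, Srsf3-201 and Mrap-202 add exons of 137, 456 and 85 nt, and Tk2-202 skips an exon of 74 nt. In each member the mark lies upstream of that of the coding form.

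All 343 members are spliced, with 2 to 26 exons (median 7) and a median length of 1605 nt. In each the stop lies over 50 nt ahead of the last junction, which is the criterion by which the type is assigned and no finding. The distance ranged from 51 to 3578 nt with a median of 315 nt (quartiles 157 and 698.5), and 48 members lie at 100 nt or less. Exactly 1 junction follows the stop in 82 members. The stop codon was TGA in 192 members, TAG in 78 and TAA in 73. The annotation gives its highest level of transcript support to 187 members and its lowest to 53.

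**Figure D4:**
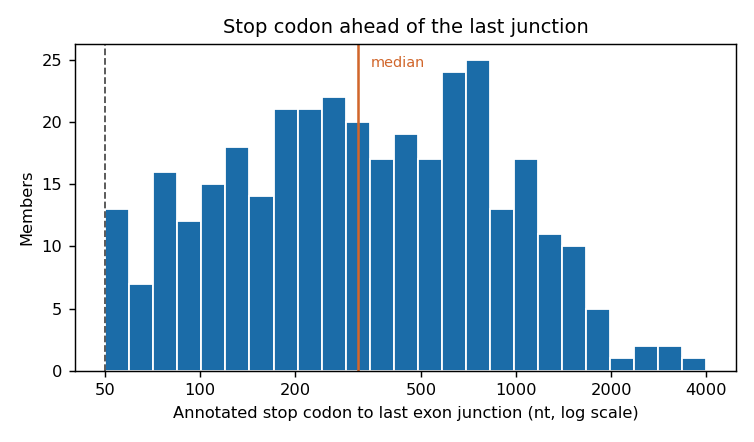
Number of members by the distance from the annotated stop codon to the last exon junction, in nt on a log scale. The dashed line marks 50 nt and the orange line the median of 315 nt. No member lies below 50 nt, and the longest distance is 3578 nt.

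A coding form with reads was found for 334 members, and 295 differ from it in a single way. A moved splice site was the most common difference, in 123, followed by a skipped exon in 76, an added exon in 66 and a retained intron in 12. Among the skipped exons 75 of 76 have a length that is not a multiple of 3, so the frame shifts and the stop is met in an exon that both forms share. Of the moved sites, 115 of 123 are shifts that are not a multiple of 3, with a median of 40 nt and 21 shifts of 10 nt or less. Their stop lies in a shared exon in 94 and in sequence the coding form lacks in 28. The type is assigned from an early stop, so these counts of frame shifts follow in large part from the annotation and are no finding. Added exons work in another way, as 56 of 66 contain the stop themselves, 21 of these with a length that is a multiple of 3. Retained introns held the stop in 10 of 12. Of all members with a coding form, 200 stop in shared exons, 114 in sequence the coding form lacks, and 20 at the coding form's own stop.

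**Figure D5:**
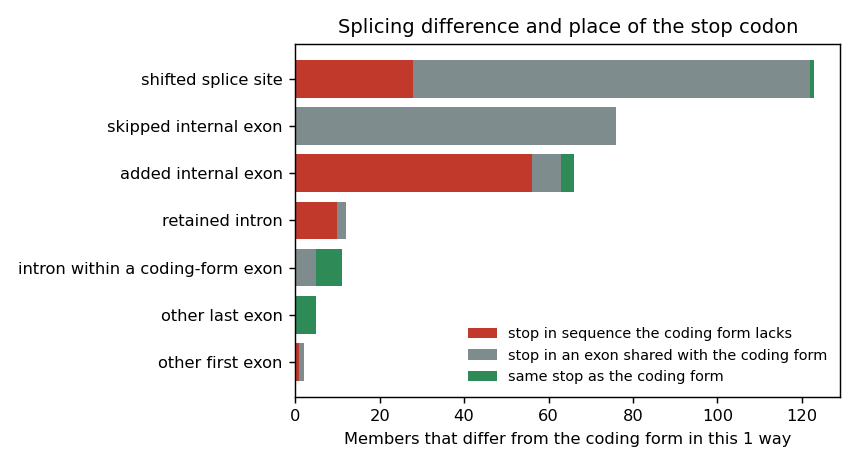
Number of members by the single way in which they differ from the coding form, for the 295 with 1 difference. Colours give where the stop codon lies: in sequence the coding form lacks (red), in a shared exon (grey) or at the stop of the coding form (green). All 76 skipped exons lead to a stop in a shared exon, and since skipping adds no sequence, none could lead to a stop in new sequence. Of the 66 added exons, 56 contain the stop.

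Shares of reads by kind of difference are given without a test. Members with a retained intron took 9.47% of their genes' Known reads in replicate 1 and 12.2% in replicate 2, and Ddx5-208 supplies most of those reads. The 11 members that splice out a stretch within a coding-form exon took 20.6% and 17.7%, the highest of these kinds. They had 101 and 55 reads in all, and the 3 Crebzf members, which each splice out such a stretch, had 54 and 38. The high value thus rests largely on 1 gene. Added exons took 5.86% and 5.74%, moved sites 5.33% and 5.64%, and skipped exons 4.87% and 4.15%. The median share per member was 4.17% for retained introns, 17.7% for stretches spliced out within an exon, 7.92% for added exons, 7.14% for moved sites and 6.73% for skipped exons. The frame that remains was a median of 35.0% of the coding length over all members with a coding form, 30.8% for added exons and 27.2% for skipped ones. Of the 334 members, 265 are annotated as shorter than their coding form and 69 as longer, with a median difference of -333.5 nt. Whether transcript length affected the reads was not tested. In 20 members the reads exceeded those of the coding form, and 29 led or tied in their gene, 12 of them in genes with at least 20 Known reads.

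Over all Known reads, NMD transcripts of any read number took 0.313% in replicate 1 (0.30 to 0.325) and 0.246% in replicate 2 (0.234 to 0.257). Reads of the 2 libraries differed in this share (two-sided Fisher's exact test, p = 2.88e-15), and whether a difference was called depended on which genes were counted. The same test also called it in genes with at least 2 Known transcripts with reads (0.497% and 0.383%). In protein_coding genes it was called as well (0.319% and 0.248%). Genes over 4-fold higher in replicate 2 held 0.488% of Known reads in replicate 1 and 19.3% in replicate 2, yet only 3 and 16 NMD reads. Without genes over 4-fold apart in either direction, the shares were 0.316% and 0.302%, and the same exact test no longer called a difference (p = 0.144). Within the genes that have a member the difference was also not called (6.19% and 6.07%, exact p = 0.533). The settings without genes over 4-fold apart and within member genes were added after the data were seen. The first removes genes by the difference between these libraries itself, so it does not show where the difference in NMD share comes from. Azgp1, which encodes a secreted zinc-binding glycoprotein and was named after its values were seen, was the 1 member gene over 16-fold higher in replicate 2, and Azgp1-202 had 1 of 3 and 7 of 136 Known reads there.

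Other annotated types were set beside the members. Stratified by gene, the odds ratio of replicate 2 over replicate 1 was 0.907 (0.871 to 0.945) for the 851 retained_intron transcripts with at least 3 reads and 0.910 (0.843 to 0.983) for the 419 processed_transcript ones. It was 1.11 (1.07 to 1.14) for protein_coding transcripts, against 1.01 for the NMD members with an interval that holds 1. The interval of the members overlaps those of the retained_intron, processed_transcript and protein_coding transcripts alike, and the difference between the types was not tested. Of annotated transcripts, 4.77% of the NMD type reached 3 reads, 3.90% of retained_intron, 2.64% of processed_transcript and 24.0% of protein_coding. Both libraries held 88.3% of the NMD members, 85.9% of the retained_intron, 85.2% of the processed_transcript and 93.5% of the protein_coding transcripts at that minimum. Median summed reads were 5, 5, 6 and 23 in the same order, and a transcript with more reads is more readily seen in both.

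The machinery of the pathway was read in both libraries, and none of its 25 genes held a member. Of its genes with at least 20 reads, 2 of 17 have an annotated NMD transcript at all. Eif4a3, the helicase core of the exon junction complex, was highest with 332 CPM in replicate 1 and 231 CPM in replicate 2. Its partners Rbm8a, Magoh, Casc3 and Rnps1 had 110, 40.4, 36.6 and 57.2 CPM in replicate 1 and 70.8, 23.2, 37.0 and 51.8 CPM in replicate 2. Upf1, the central helicase, had 75 and 87 reads, Upf3a 64 and 50 and Upf3b 13 and 8, while Upf2 had 12 and 7. Of the factors that act on phosphorylated UPF1, Smg6, the endonuclease, had 21 and 8 reads and Smg5 12 and 5. The kinase Smg1, with a very long transcript, had 2 and 1, and its regulators Smg8 and Smg9 had 9 and 14 and 29 and 13.

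Gene reads were compared by an exact conditional binomial test with Benjamini-Hochberg adjustment over 9211 genes, of which 26.4% were called, 8.58% higher and 17.9% lower in replicate 2. Of the 17 measured pathway genes 0 were higher, 2 were lower and 15 did not pass. The lower genes were Eif4a3 (log2 ratio -0.52, SE 0.12, adjusted p = 0.000196) and Rbm8a (log2 ratio -0.63, SE 0.22, adjusted p = 0.0185). Both calls are lost under TMM, DESeq2 and spike-in scaling, and Eif4a3 turns to 0.07 under the last. The list median was -0.44 beside -0.28 for all genes, and spike-in scaling moved these to 0.15 and 0.31. Of the remaining pathway genes, Dhx34 (21 and 19 reads), Magohb (14 and 8), Ncbp1 (40 and 26), Gspt1 (82 and 59), Etf1 (84 and 55) and Pnrc2 (126 and 109) did not pass, and Nbas (9 and 8), Dcp1a (7 and 8), Dcp2 (10 and 3) and Xrn1 (3 and 4) were under the minimum.

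The genes that hold the members were compared in the same way. Of 304 tested, 11 were higher (3.62%), 82 were lower (27%) and 211 did not pass, beside the 8.58% and 17.9% of all genes. These counts hold for scaling by total gene reads only, since the other scalings were not applied to this set. On that scaling the median log2 ratio was -0.37 in the member genes and -0.28 in all genes tested. Of the 304 member genes, 123 had 20 to 99 reads, against 5310 of the 9211 genes in all. A gene with more reads is more readily called. Among the regulators of splicing, 6 of 13 measured SR and Tra2 genes and 17 of 37 in the hnRNP list were lower and 0 higher, with medians of -0.53 and -0.49 that became 0.06 and 0.10 under spike-in scaling. Of the 17 measured host and stress genes 9 were lower and 0 higher, with a median of -0.66 that became -0.41 under TMM and -0.07 under spike-in scaling. The levels thus depend on the scaling, and whether they are related to the markers given above was not tested. The share of member reads within genes was 6.08% and 5.98%.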

How the data were processed

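Long-read RNA sequencing of 2 adrenal libraries was used. Per the file headers, the authors deposited for each library a table of read counts per transcript model and an annotation on mm10 built from GENCODE release M21. These counts are whole numbers of reads, neither scaled nor pooled. The sources used here do not give the aligner, the version of the counting program or the read filters. Members, gene lists and the naming rule were chosen with earlier results of these data known. The rule names the 12 members with most reads, the 10 genes with the highest member share among those with at least 20 summed Known reads, every member past the share test, every member in the gene lists, and every pathway gene for its level, of which 1 is not reported here. Other genes are said to be named after their values were seen.

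Counts were joined by annotated identifier, and types were taken from the deposited annotation, which gave all 7186 NMD transcripts the same type and exons as M21. Shares have exact Clopper-Pearson 95% intervals. Known transcripts with at least 10 summed reads, in genes with at least 10 Known reads per library, were compared by Fisher's exact test, and genes with at least 20 reads by an exact conditional binomial test on 1065570 and 946553 gene reads, each with Benjamini-Hochberg adjustment at 0.05 (SciPy 1.17.1). Log2 ratios have 0.5 reads added, and their SE covers counting error. TMM factors (edgeR 4.0.16), DESeq2 1.42.0 size factors and 26894 and 15903 ERCC spike-in reads served as alternative scalings. Both tests were checked on simulated reads. The tables hold no molecular identifiers, so reads need not be independent and every interval or limit reflects counting error alone.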

Additional observations from a re-analysis of the deposited data

How the results depend on the processing

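No paired analysis was possible because both libraries belong to a single group. The share of the member genes' Known reads on NMD transcripts, 6.03%, was 3.67% with a minimum of 1 read, 13.6% with 10 reads, 4.76% of all gene reads and 5.56% without Ddx5, and it ranged from 5.98% to 6.08% with 1 library left out. The first pair of values follows from the rule itself, which admits fewer or more genes of low share. The share over all Known reads, 0.279%, ranged from 0.246% to 0.313% with 1 library left out. Its difference of -0.067 percentage points was -0.115 in genes with at least 2 Known transcripts with reads and -0.0714 in protein_coding genes, both called. The difference became -0.0141 without genes over 4-fold apart and -0.122 within member genes, neither called. The share test called 57 to 66 transcripts and 1 member, Ddx5-208, under its 4 alternatives. Pathway genes higher in replicate 2 went from 0 to 1 with TMM factors, to 1 with DESeq2 size factors and to 2 with spike-in reads, and lower ones from 2 to 0 under each. Splicing regulators went from 0 higher and 23 lower to 1 and 12 with either of the first 2 scalings and to 3 and 0 with spike-in reads. Most members had under 10 reads, so depth limits their shares.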

Other observations

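Letters of a repeat were noticed in an added exon after its sequence had been read. Elob encodes a subunit of the elongin complex, and Elob-205 adds an 81 nt exon (chr17:23826586-23826666, minus strand) in which the stop lies. It is shown because its letters resemble those of B1, a family of short interspersed repeats that is abundant in the mouse genome. The line gives 15 shared bases and then the exon through the stop codon, in capitals (chr17:23826638-23826666, minus strand).
Elob-205: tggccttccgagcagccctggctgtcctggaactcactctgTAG

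The run CCTGGAACTC, taken from that window, was searched for on both strands, with no overlap with another motif. It or its reverse complement GAGTTCCAGG stood in 4 of the 103 distinct added internal exons of the members (3.88%). The exons were those of Elob-205, Rbm7-204, 1810009A15Rik-202 and Fam53a-206, and each holds the stop codon. The run stood in 2 of 1979 internal exons of the coding forms (0.101%) and in 233 of 180109 internal exons of M21 protein_coding transcripts (0.129%). Median lengths were 90, 113 and 123 nt. Because the letters were chosen from 1 of these exons, the count is a description, and a match says nothing of where the exon came from.

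Ndufa7 is not the single gene of its complex with a member. Of 36 genes for subunits of respiratory complex I with at least 20 reads, chosen after their values were seen, 5 held a member, beside 304 of 9211 genes in all (3.30%, or 5.37% of genes with 500 reads or more). No test was made and nothing particular to the complex is read from this. Shares over both libraries were 9.25% in Ndufs6, 5.74% in Ndufa7, 5.53% in Ndufs4, 1.45% in Ndufa3 and 1.01% in Ndufb8.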
